A study of Mus musculus with 18 samples.

Results

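The comparison described here sets embryonic mouse kidney cells that received small hairpin RNAs against Mylk beside cells that received hairpins against Rock1 and Rock2. Both groups were cells of the brightest mCherry fraction. Its members are the 6 mCherry-positive libraries labelled Mylk-shRNA or Rock1/2-shRNA, of 18 libraries in the series, with 3 litters in each group. All kidneys were wild-type CD1 kidneys taken at embryonic day 14 and exposed for 4 hours to adeno-associated virus serotype 2 (AAV2). The virus carried an mCherry reporter under the ubiquitous CAG promoter, followed by a pair of hairpin cassettes in a miR-30 backbone. In the Mylk-shRNA virus both hairpins targeted Mylk, at different regions. In the Rock1/2-shRNA virus 1 hairpin targeted Rock1 and the other Rock2. In the scramble-shRNA virus, used here only as a reference level, the order of the Rock1 and Rock2 target bases had been shuffled. Explants then grew for 72 hours in a gel of collagen I and Matrigel. The explants of each condition were pooled and digested, and the brightest 25% of cells by mCherry were sorted as positive. The dimmest 50% formed the negative fraction of the same cultures. Each library therefore averages a mixed population from pooled kidneys, CAG is active in any transduced cell type, and untransduced cells grew beside the transduced ones.

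Myosin light chain kinase, the product of Mylk, phosphorylates the regulatory light chain of myosin II when calcium and calmodulin bind it. The ROCK kinases, products of Rock1 and Rock2, raise the same phosphorylation when the small GTPase RhoA activates them, mainly by inhibiting myosin phosphatase, and they also act on actin through LIM kinases and cofilin. Both routes feed actomyosin tension, and the state of actin in turn sets how much MRTF coactivator enters the nucleus to act with serum response factor (SRF) on genes of the cytoskeleton and of smooth muscle. In the fetal kidney, contractile cells lie in the stroma, in vessel walls and around the ureter, while the nephron lineage and the ureteric bud are epithelial or becoming so. Comparing the hairpin sets with each other asks whether hairpins aimed at one kinase route leave a different transcriptome from hairpins aimed at the other.

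The 6 libraries held between 3121616 and 9662654 counts. Total counts and mitochondrial shares overlapped between the groups, and which group was higher turned between litters. The share of counts in ribosomal protein genes was lower with Mylk-shRNA in each litter, at 11.25, 9.42 and 12.8% against 11.31, 11.2 and 13.98%, with overlap between groups. The libraries carried stromal and nephron progenitor markers, with Foxd1, a factor of stromal progenitors, at 231 to 422 CPM (the deposited level, a count scaled to the library's total) and Six2, a factor of nephron progenitors, at 165 to 222 CPM. Cdh1, the epithelial cadherin, lay at 4.41 to 11.4 CPM, and the podocyte slit diaphragm gene Nphs1 did not pass the filter on low counts. One Rock1/2-shRNA library stood apart from the rest in its sex-linked transcripts. Xist, the RNA that coats the inactive X chromosome of female cells, stood at 168, 167 and 255 CPM in the Mylk-shRNA libraries of litters 1, 2 and 3 and at 188, 236 and 3.92 CPM in the Rock1/2-shRNA libraries. The summed Y-linked transcripts were 73.9, 89.6 and 103 CPM with Mylk-shRNA and 40.5, 24.5 and 168 CPM with Rock1/2-shRNA. Litters 1 and 2 of the Rock1/2-shRNA group were lower in Y-linked RNA than any Mylk-shRNA library, and litter 3 was higher and nearly free of Xist. The negative fraction of that Rock1/2-shRNA culture of litter 3 was alike, at 1.71 CPM of Xist and 179 CPM of Y-linked RNA. Sex-linked levels were thus unbalanced within litters. The count of genes called is also given with the summed Y-linked level as a covariate and without litter 3. So are the values of Mylk, Myh11, Myocd and Cnn1. Library replicates came from separate litters.

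**Figure D1:**
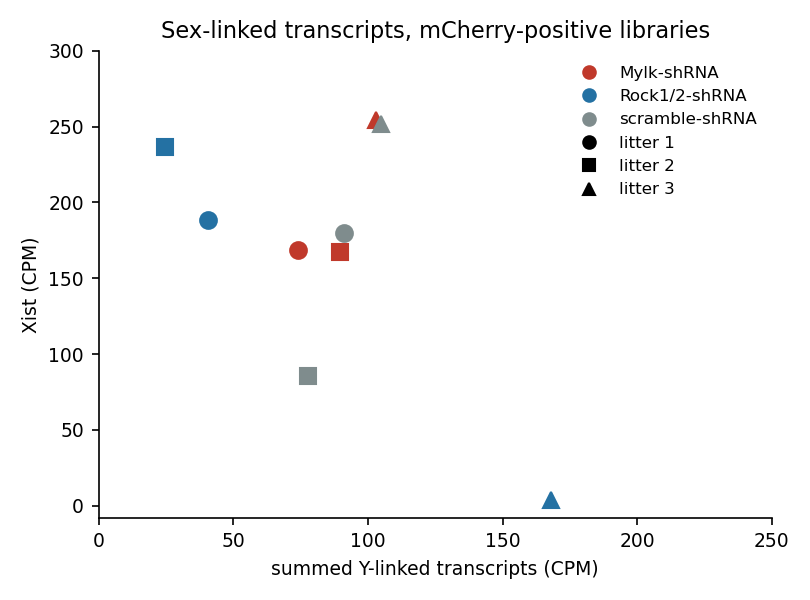
Xist (vertical axis, CPM) against the summed Y-linked transcripts (horizontal axis, CPM) in the 9 mCherry-positive libraries, coloured by virus and with a symbol for each litter. The Rock1/2-shRNA library of litter 3 lies at 3.92 CPM of Xist and 168 CPM of Y-linked RNA, away from the other 8.

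For the 3 targeted transcripts themselves, no difference beyond the spread of the litters was detected. Mylk stood at 169, 187 and 168 CPM in the Mylk-shRNA libraries of litters 1, 2 and 3 and 223, 177 and 151 CPM in the Rock1/2-shRNA libraries. The scramble-shRNA libraries read 211, 181 and 198 CPM. The lowest and the highest Mylk values of the comparison were both in Rock1/2-shRNA libraries, and the Mylk-shRNA libraries lay between them. The level with Mylk-shRNA was 94.5% of that with Rock1/2-shRNA (95% interval 80.1 to 112%; log2 fold change -0.08 ± 0.12, standard error; edgeR's quasi-likelihood test, unadjusted p = 0.489, adjusted p = 1.00). Without the Rock1/2-shRNA library of litter 1, the highest in Mylk, the log2 fold change was 0.05. This was the only 1 of 6 fits leaving out a single library in which the sign turned. Without the Rock1/2-shRNA library of litter 3, the lowest in Mylk, the log2 fold change was -0.23. It was -0.18 without litter 3 and -0.02 with the Y-linked covariate.

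Rock1 stood at 72.9, 93.6 and 89.5 CPM in the Mylk-shRNA libraries of litters 1, 2 and 3 and 82.2, 83.9 and 74.7 CPM in the Rock1/2-shRNA libraries, with the groups overlapping and the sign of the difference turning between litters. Its fitted sign was also negative without litter 3 (log2 fold change -0.04). Its level with Mylk-shRNA was 104% of that with Rock1/2-shRNA (95% interval 87.1 to 124%; log2 fold change 0.06 ± 0.12, unadjusted p = 0.648 by the quasi-likelihood test). Rock2 stood at 64.5, 76.8 and 76.7 CPM in the Mylk-shRNA libraries of litters 1, 2 and 3 and 56.2, 67.7 and 64.96 CPM in the Rock1/2-shRNA libraries. In each litter Rock2 was higher with Mylk-shRNA, although the groups overlapped, and its level was 113% of that with Rock1/2-shRNA (95% interval 93.7 to 135%; log2 fold change 0.17 ± 0.13, unadjusted p = 0.194 by the same test). The mean of Rock2 in the scramble-shRNA libraries was 71.4 ± 9.12 CPM (SD, n = 3), close to the Mylk-shRNA mean of 72.7 ± 7.06 CPM (SD, n = 3) and above the Rock1/2-shRNA mean of 62.9 ± 6.02 CPM (SD, n = 3). These are levels of all RNA counted to each gene, and protein was not measured in these files.

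Mylk was higher in the positive than in the negative fraction with each virus, without overlap. It read 151 to 223 CPM over the 9 positive libraries and 57.8 to 86.3 CPM over the 9 negative ones. In these bulk libraries more cells of a Mylk-expressing type and more Mylk RNA per cell cannot be told apart. The other myosin light chain kinase genes were barely detected: Mylk2, Mylk3 and Mylk4 reached at most 0.473, 0.207 and 0.238 CPM in any of the 6 libraries and were not tested.

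**Figure D2:**
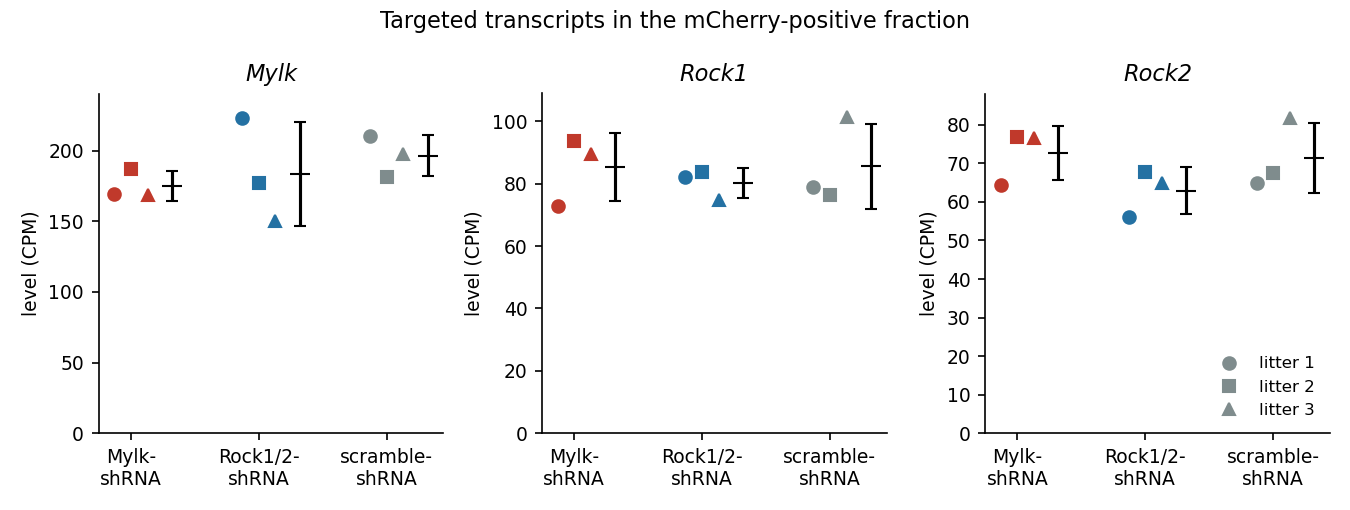
Levels (CPM, vertical axes from 0) of Mylk, Rock1 and Rock2 in the mCherry-positive libraries of each virus, with a symbol per litter and the mean with its SD (n = 3) as a bar beside the points. The groups overlap for all 3 genes, and Rock2 is lower with Rock1/2-shRNA than with Mylk-shRNA in each litter.

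Over the transcriptome, 0 of 16544 genes passed an adjusted p of 0.05 (0% of genes tested; edgeR's quasi-likelihood test with litter as a block, Benjamini-Hochberg adjustment). At an unadjusted p below 0.05 there were 477 genes (2.88%), of which 272 (1.64%) were higher with Mylk-shRNA and 205 (1.24%) lower. An even spread of p-values would have placed 827 genes in that range, so small p-values were fewer than such a spread gives. That shortfall depended on the libraries fitted. With the 6 libraries alone 1189 of 13689 genes were below 0.05, and with the 9 positive libraries 985 of 14048. Both counts are above an even spread. In the fit of all 18 libraries the smallest unadjusted p of any gene was 0.000332 by the quasi-likelihood test. All Mylk-shRNA libraries lay above all Rock1/2-shRNA libraries for 444 genes (2.68%) and below them for 454 genes (2.74%), 898 in all (5.43%). The difference had the same positive sign in all 3 litters for 2832 genes (17.1%) and the same negative sign for 2060 (12.5%).

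The differences in 1 litter were at most weakly shared by another. Over the 11996 genes that averaged 5 CPM or more in the 6 libraries, the log2 difference between viruses in litter 1 correlated with that in litter 2 at r = -0.01, litter 1 with litter 3 at 0.08 and litter 2 with litter 3 at 0.13. These are descriptions across genes, which are not independent and share each litter's libraries. Standard errors of these differences had a median of 0.16 over all genes and 0.13 over those 11996. Among the latter, the 95% interval lay wholly within a 2-fold difference in either direction for 98.8% and within a 1.5-fold difference for 85.7%, each gene taken singly.

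**Figure D3:**
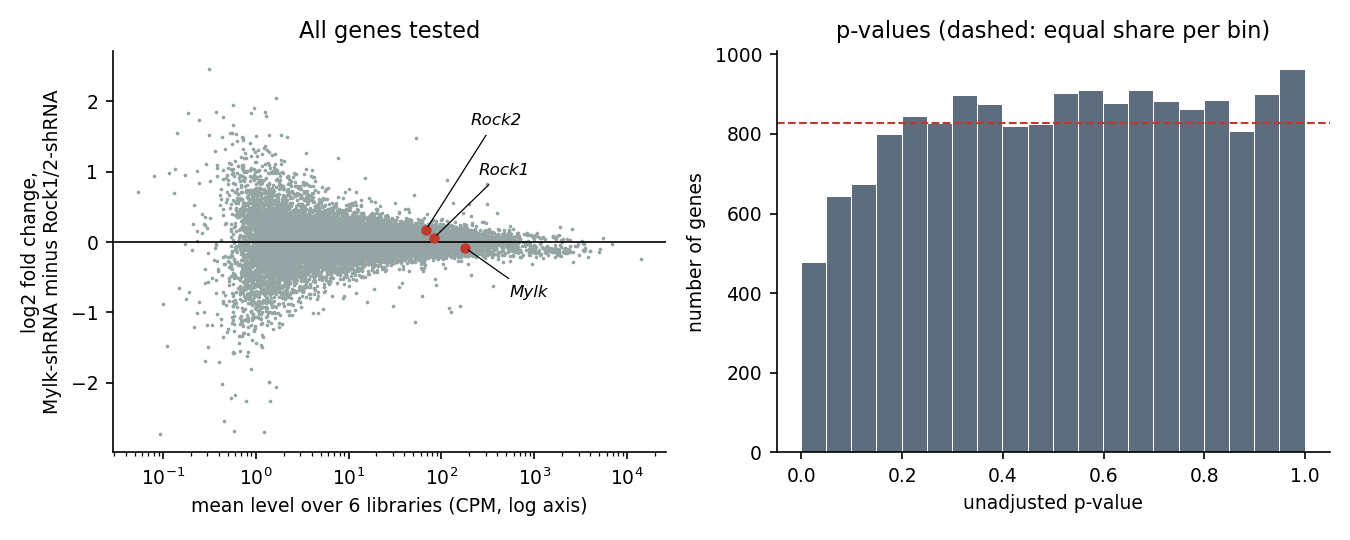
Left, log2 fold change of Mylk-shRNA over Rock1/2-shRNA against the mean level of each gene in the 6 libraries (CPM, log axis), with the targeted genes marked; right, number of genes in each bin of unadjusted p, with a dashed line at an equal share. The 3 targeted genes lie near 0, and the first bin holds 477 genes against an equal share of 827.

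The 12 genes of smallest unadjusted p that were higher with Mylk-shRNA in each litter had log2 fold changes between 0.32 and 0.75 and unadjusted p from 0.00176 to 0.00948, and none passed after adjustment (adjusted p = 1.00 by edgeR's quasi-likelihood test). A value in brackets is from here on the fitted log2 fold change with its standard error. Tbx18 and Postn belong to the stromal list. Tbx18, a T-box factor of the stroma and of ureteric mesenchyme, stood at 42.2, 39.8 and 29.9 CPM in the Mylk-shRNA libraries of litters 1, 2 and 3 and 33.00, 24.1 and 20.6 CPM in the Rock1/2-shRNA libraries. Only the Rock1/2-shRNA library of litter 1 reached into the range of the Mylk-shRNA libraries, and the log2 fold change was 0.55 ± 0.16. Postn, which encodes the matrix protein periostin, read 209, 297 and 197 CPM with Mylk-shRNA and 193, 209.9 and 133 CPM with Rock1/2-shRNA (0.37 ± 0.12). The scramble-shRNA means of Tbx18 and Postn, 27.5 and 186 CPM, lay between those of the hairpin groups.

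Pcdh7, a protocadherin of cell adhesion, read 20.6, 25.5 and 13.5 CPM with Mylk-shRNA and 16.98, 13.6 and 8.32 CPM with Rock1/2-shRNA, with the Mylk-shRNA library of litter 3 inside the Rock1/2-shRNA range (0.62 ± 0.17). Kcnk2, a mechanically gated potassium channel, read 12.5, 13.8 and 12.97 CPM against 7.37, 9.94 and 8.57 CPM, and the groups did not overlap (0.56 ± 0.18). A pair of the 12 act close to actin or to RhoA. Afap1l1, related to an actin filament crosslinker, read 6.83, 9.53 and 5.92 CPM against 2.88, 5.68 and 3.67 CPM (0.75 ± 0.26), and Ripor1, a partner of RhoA, read 43.8, 54.1 and 43.4 CPM against 34.6, 42.2 and 30.8 CPM (0.34 ± 0.12). For both the lowest Mylk-shRNA library was above the highest Rock1/2-shRNA library. The remaining members of the 12 were Cyp4f17, Tlcd2, Lgi2, Gpr153, Galnt18 and Gpd1l, with log2 fold changes of 0.63, 0.41, 0.41, 0.32, 0.54 and 0.57. In 7 of the 12 the groups did not overlap, against 2.68% of all genes in this direction. The choice by small p and equal sign favours such genes.

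The 12 genes of smallest unadjusted p in the other direction had log2 fold changes between -0.76 and -0.25 and unadjusted p from 0.00136 to 0.0136, again with an adjusted p of 1.00 by the quasi-likelihood test. Ttf1, a terminator of ribosomal RNA transcription, read 19.1, 12.4 and 16.9 CPM with Mylk-shRNA and 24.2, 21.8 and 19.2 CPM with Rock1/2-shRNA (-0.42 ± 0.14). Znhit6, which helps assemble small nucleolar ribonucleoproteins, read 22.04, 24.8 and 18.9 CPM against 29.8, 29.2 and 26.9 CPM (-0.40 ± 0.14), without overlap. Gtf2f1, a subunit of a general factor of RNA polymerase II, read 33.4, 35.7 and 32.7 CPM against 43.2, 41.2 and 35.01 CPM (-0.25 ± 0.09).

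Cdh2, which encodes N-cadherin, the cadherin of the renal mesenchyme and early nephron, stood at 45.6, 48.1 and 33.8 CPM in the Mylk-shRNA libraries of litters 1, 2 and 3 and 55.02, 55.6 and 42.2 CPM in the Rock1/2-shRNA libraries. It was lower in each litter by a similar amount, while the groups as wholes overlapped because litter 3 was low in both (-0.28 ± 0.10). Ankrd37, a hypoxia-responsive gene, read 60.7, 35.97 and 17.8 CPM against 75.3, 48.9 and 26.9 CPM, a spread among litters wider than that between viruses (-0.41 ± 0.15). Erdr1x, whose near-identical copies on the sex chromosomes can share reads, is uncertain for that reason (-0.33 ± 0.12). The others were Zfp119b, Spag7, Setmar, Tmem205, Arl6ip4 and Pals2, with log2 fold changes of -0.76, -0.37, -0.70, -0.39, -0.27 and -0.28. In 6 of the 12 the groups did not overlap, against 2.74% of all genes in this direction, and the same choice favours such genes.

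**Figure D4:**
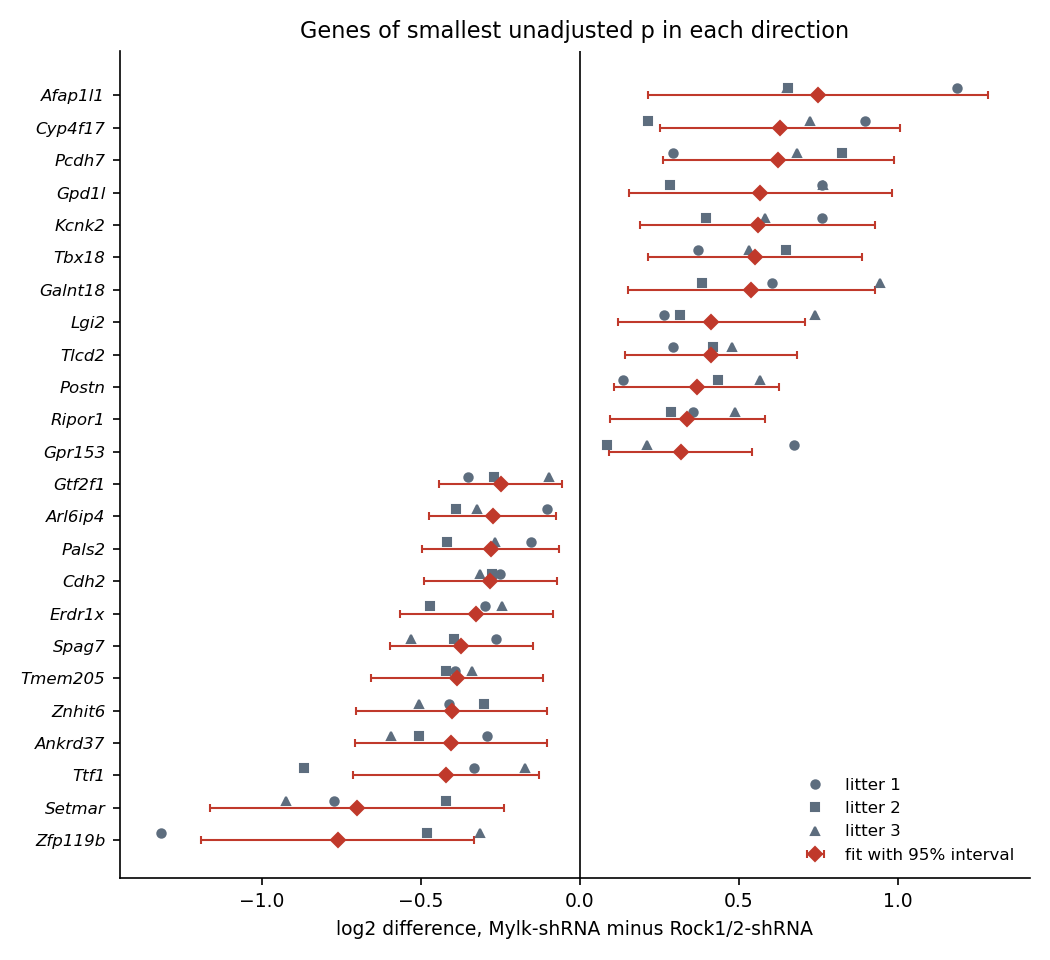
Log2 difference of Mylk-shRNA minus Rock1/2-shRNA (horizontal axis) for the 12 genes of smallest unadjusted p in each direction, with the fitted value and its 95% interval as diamonds and bars and each litter's own difference as a grey symbol. The genes were chosen for small p and equal sign in the litters, so intervals that leave out 0 follow from the choice, and Afap1l1 has the widest interval.

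Within the contractile machinery no gene passed the adjusted threshold, and the lists lay close to the median of all genes tested, 0.00. Of 14 light chain kinases and related genes tested, 7 had a positive log2 fold change, with a median of 0.01. Dapk3, a light chain kinase outside the MLCK family, read 19.9, 24.3 and 23.1 CPM with Mylk-shRNA and 27.5, 24.4 and 23.7 CPM with Rock1/2-shRNA (-0.20 ± 0.15). The myosin phosphatase genes had a median of -0.01, with 5 of 10 positive. In a pair of its targeting subunits, both named for their small p within the list, the groups did not overlap. This was so for 5.43% of all genes tested. Members of the lists below were likewise named for small p, a choice that favours groups that do not overlap. Ppp1r12a, the subunit MYPT that ROCK phosphorylates, stood at 101, 122 and 121 CPM in the Mylk-shRNA libraries of litters 1, 2 and 3 and 86.8, 89.2 and 92.3 CPM in the Rock1/2-shRNA libraries. Every Mylk-shRNA library was above every Rock1/2-shRNA library (0.33 ± 0.13, unadjusted p = 0.0167, adjusted p = 1.00 by edgeR's quasi-likelihood test). Its relative Ppp1r12b read 6.52, 8.10 and 6.48 CPM against 5.77, 5.21 and 4.65 CPM (0.43 ± 0.24).

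The 7 nonmuscle myosin II genes had a median of -0.02, with 3 positive. Myh9, a nonmuscle heavy chain, read 216, 298 and 198 CPM with Mylk-shRNA and 179.9, 225 and 172 CPM with Rock1/2-shRNA, higher in each litter with overlap between groups (0.27 ± 0.15). Of the RhoA family GTPases and their regulators, 22 of 25 were positive at a median of 0.05, against 50.4% of all genes. Arhgef2, an exchange factor for RhoA that is held on microtubules, read 112, 123 and 115 CPM against 104, 107 and 101 CPM and did not overlap (0.15 ± 0.09). Arhgap1, which switches RhoA family GTPases off, had a log2 fold change of 0.14 ± 0.08, and Net1, another RhoA exchange factor, one of -0.19 ± 0.11. Among the ROCK substrates and actin regulators 15 of 23 were positive, with a median of 0.06. Ssh1, the phosphatase that reactivates cofilin, read 55.8, 64.8 and 46.8 CPM against 45.8, 51.9 and 43.6 CPM (0.21 ± 0.11), and the formin Diaph1, the other main effector of RhoA, read 33.7, 35.02 and 31.6 CPM against 27.9, 33.2 and 26.3 CPM (0.17 ± 0.10).

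Targets of MRTF and SRF were mostly on the positive side without any passing the test. Of the list, 21 of 24 tested genes had a positive log2 fold change and 14 were higher with Mylk-shRNA in each litter, against 17.1% of all genes. The median was 0.13, with medians of 0.12, 0.06 and 0.22 in litters 1, 2 and 3. SRF binds the CArG box, and RefSeq promoters (GRCm38.p6) were searched on both strands for it in the 250 bases before each annotated start, overlapping matches included. A box was found for 439 of 27025 genes (1.62%), and for 6 of the 20 genes of the list that matched the promoter table (30.0%). A match is a description of letters and not of binding. The 60-base windows shown are those of Srf itself, of the SRF targets vinculin, calponin and cytoplasmic actin, and of the myosin regulatory light chain gene whose product both kinase routes act on; boxes are in capitals and each sequence is on the strand of its gene, 5′ to 3′. Srf, Vcl, Cnn2 and Actg1 were chosen after their values had been seen, and the windows of Fhl1 and Fhl2 are not printed.
Srf (chr17:46556210-46556269, minus strand): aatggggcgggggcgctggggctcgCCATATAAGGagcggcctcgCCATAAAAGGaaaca
Vcl (chr14:20929148-20929207, plus strand): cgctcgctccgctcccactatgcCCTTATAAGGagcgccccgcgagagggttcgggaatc
Cnn2 (chr10:79988519-79988578, plus strand): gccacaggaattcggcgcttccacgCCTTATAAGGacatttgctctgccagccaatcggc
Actg1 (chr11:120348551-120348610, minus strand): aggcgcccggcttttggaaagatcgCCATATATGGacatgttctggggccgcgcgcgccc
Myl9 (chr2:156775278-156775337, plus strand): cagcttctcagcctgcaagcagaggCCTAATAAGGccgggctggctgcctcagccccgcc

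None of the genes with a box passed the test. Srf, with a pair of boxes that start 82 and 62 bases before its first base, stood at 40.1, 35.3 and 31.9 CPM in the Mylk-shRNA libraries of litters 1, 2 and 3 and 31.7, 34.8 and 30.97 CPM in the Rock1/2-shRNA libraries (0.10 ± 0.10). Vcl, which anchors actin at adhesions, read 100.1, 111 and 71.6 CPM with Mylk-shRNA and 91.9, 97.7 and 59.98 CPM with Rock1/2-shRNA (0.16 ± 0.12). Both were higher in each litter and overlapped between groups. Cnn2, an actin-binding calponin, read 176, 160.3 and 184 CPM against 177, 139 and 154 CPM (0.14 ± 0.11), and Actg1, cytoplasmic gamma-actin, had a log2 fold change of 0.07 ± 0.10. The remaining list members with a box, the LIM-domain genes Fhl1 and Fhl2, read 19.8, 15.01 and 20.3 CPM against 17.6, 14.8 and 20.1 CPM (0.11 ± 0.16) and 300.0, 247 and 231 CPM against 283, 285 and 266 CPM (-0.11 ± 0.11). Fhl2 was on the other side of 0 from the rest, and Fhl1 turned to -0.05 without the Mylk-shRNA library of litter 1. Myl9, the smooth muscle type regulatory light chain, stood at 114, 82.2 and 86.5 CPM in the Mylk-shRNA libraries of litters 1, 2 and 3 and 112, 61.9 and 64.02 CPM in the Rock1/2-shRNA libraries. Litter 1 was alike in the groups while litters 2 and 3 were lower with Rock1/2-shRNA (0.26 ± 0.16). Pdlim5, an adaptor of the Z-disc and stress fibres, and Flna, the actin crosslinker filamin A, had log2 fold changes of 0.26 ± 0.12 and 0.19 ± 0.11.

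Smooth muscle genes lay mostly above 0. Of those tested, 14 of 16 were positive, against 50.4% of all genes. In each litter 10 were higher with Mylk-shRNA and none was lower, against 17.1% and 12.5% of all genes. Mylk itself, the target of 1 of the viruses, is in this list and its sums, and was its lowest member (-0.08). The median was 0.20 over the fit and 0.13, 0.22 and 0.42 in litters 1, 2 and 3, and it was 0.18 in the negative fraction. Their summed level was 2312, 1787 and 1804 CPM with Mylk-shRNA and 2181, 1568 and 1399.8 CPM with Rock1/2-shRNA, so the ranges overlapped and litter 1 was high in both. Myh11, the smooth muscle myosin heavy chain, read 26.1, 14.5 and 17.2 CPM against 19.2, 8.52 and 3.92 CPM, with the Rock1/2-shRNA library of litter 3 lowest (0.92 ± 0.37). Myocd, the coactivator that drives smooth muscle genes with SRF, read 5.90, 3.34 and 4.51 CPM against 4.16, 2.13 and 1.71 CPM (0.80 ± 0.35). Cnn1, the calponin of differentiated smooth muscle, read 18.3, 7.62 and 11.6 CPM against 15.7, 4.73 and 3.43 CPM (0.76 ± 0.41). For these 3 genes the ratio between the groups within a litter was smallest in litter 1. Each gene varied more than 2-fold between litters of the Rock1/2-shRNA group. The library lowest in all 3 is the one that stood apart in Xist. Without litter 3 the log2 fold changes of Myh11, Myocd and Cnn1 were 0.63, 0.61 and 0.48, and with the Y-linked covariate they were 1.47, 1.18 and 1.28. The list median was 0.14 without litter 3 and 0.10 without that library alone.

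Pericyte, stromal and matrix genes leaned the same way by smaller amounts. Some lists share members, so their medians are not independent. Cnn1 and Cnn2, for example, are in both the smooth muscle list and the list of MRTF and SRF targets. Of the pericyte and renin cell genes 10 of 13 were positive, with a median of 0.12. Pdgfrb, the platelet-derived growth factor receptor of mural cells, read 581, 659 and 534 CPM with Mylk-shRNA and 433, 629 and 446 CPM with Rock1/2-shRNA (0.22 ± 0.13), and Rgs5, a brake on G protein signals in pericytes, read 61.1, 55.3 and 39.5 CPM against 41.97, 52.8 and 28.9 CPM (0.31 ± 0.21). Of the stromal genes 16 of 22 were positive at a median of 0.09. Of the fibrillar matrix and focal adhesion genes 22 of 24 were positive at a median of 0.12, and 13 were higher in each litter. Col5a1, a fibril-nucleating collagen, read 308, 341 and 252 CPM against 241, 282 and 204 CPM (0.29 ± 0.12), and Col3a1, the abundant fibrillar collagen of fetal stroma, had a log2 fold change of 0.21 ± 0.10. Fbn1, the microfibril protein, and Itgav, an integrin subunit, had log2 fold changes of 0.29 ± 0.14 and 0.19 ± 0.09. Lum, a small proteoglycan of stroma, read 89.3, 82.9 and 65.4 CPM against 91.3, 58.2 and 33.8 CPM, with litter 1 alike and litters 2 and 3 lower with Rock1/2-shRNA (0.40 ± 0.21).

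Of the Notch pathway genes 15 of 17 were positive, with a median of 0.16. The ligand Jag1 read 56.6, 78.6 and 68.8 CPM with Mylk-shRNA and 45.5, 68.4 and 46.03 CPM with Rock1/2-shRNA (0.31 ± 0.15). The receptors Notch1 and Notch3 had log2 fold changes of 0.24 ± 0.14 and 0.20 ± 0.12. Lfng, the glycosyltransferase that tunes receptor and ligand pairing, read 6.42, 9.05 and 5.92 CPM against 5.45, 4.73 and 3.43 CPM without overlap (0.62 ± 0.28). The target Heyl, a Hes-related repressor found in vascular smooth muscle, had 0.18 ± 0.12.

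Endothelial, macrophage and red cell transcripts lay on the same side as these lists in the positive fraction. Here, too, more cells of these types and more RNA per cell cannot be told apart. Of the endothelial genes 15 of 18 were positive at a median of 0.20, and the median was 0.21 in the negative fraction. Their summed level was 307, 442 and 339 CPM with Mylk-shRNA and 258, 373 and 281 CPM with Rock1/2-shRNA, higher with Mylk-shRNA in each litter. Cdh5, the endothelial cadherin, read 38.8, 77.1 and 41.2 CPM against 32.7, 57.5 and 32.3 CPM (0.29 ± 0.18), and the junction protein gene Esam had a log2 fold change of 0.32 ± 0.16. Their part in the Notch and vascular values was not tested.

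Macrophage genes summed to 288, 589 and 441 CPM with Mylk-shRNA and 279, 454 and 388 CPM with Rock1/2-shRNA, with 12 of 14 positive at a median of 0.18 and a median of -0.22 in the negative fraction. Cd14, the endotoxin coreceptor of myeloid cells, read 3.42, 6.91 and 3.38 CPM against 1.92, 3.19 and 1.96 CPM without overlap (0.84 ± 0.29), while the complement genes C1qc and C1qb had 0.22 ± 0.12 and 0.24 ± 0.14. Erythroid genes had the highest median of any list, 0.56, with 8 of 9 positive, and medians of 0.28, 1.31 and 0.18 in litters 1, 2 and 3. The adult beta-globin gene Hbb-bs read 58.9, 199 and 222 CPM against 34.4, 100.5 and 186 CPM, so litters of 1 group differed more than the groups did (0.56 ± 0.45). In the negative fraction the erythroid median was -0.73. The erythroid regulators Gata1 and Klf1 reached at most 0.118 and 0.592 CPM and were not tested.

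The epithelial lineages were near 0 or below it. Nephron progenitor genes had a median of -0.01 with 8 of 17 positive, and Six2 itself read 165, 222 and 168 CPM with Mylk-shRNA and 221, 203 and 186 CPM with Rock1/2-shRNA (-0.16 ± 0.16). Early nephron and podocyte genes had medians of 0.01 and 0.01, with 9 of 18 and 6 of 11 positive. The lowest members of these lists had log2 fold changes of -1.34 and -0.51. Synpo, the actin-associated synaptopodin of podocyte foot processes, read 16.5, 20.5 and 12.4 CPM against 11.9, 15.3 and 10.3 CPM (0.33 ± 0.18), and Clic5, a foot process chloride channel protein, averaged 2.66 ± 0.617 CPM against 1.27 ± 0.657 CPM (SD, n = 3; 0.80 ± 0.37). Both were higher in each litter, at low levels for Clic5.

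Tubule and ureteric genes were mostly on the negative side and were few in reads. Of the proximal tubule genes 2 of 13 were positive (median -0.21), of the loop and distal tubule genes 2 of 10 (-0.25), of the ureteric tip genes 2 of 14 (-0.15) and of the trunk and collecting duct genes 1 of 11 (-0.14). In litters 1, 2 and 3 the medians were -0.63, -0.04 and -0.64 for the loop and distal tubule, all below 0. They were -0.50, 0.27 and -0.24 for the proximal tubule, 0.01, -0.08 and -0.26 for the tip and 0.39, -0.21 and -0.23 for the trunk, so for these the sign turned between litters. Single libraries moved all 4 medians. The proximal tubule median was -0.000745 without the Mylk-shRNA library of litter 1. The loop and distal median was -0.05 without the Rock1/2-shRNA library of litter 1, the tip median -0.06 without that of litter 3 and the trunk median 0.09 without that of litter 2. Sim1, a basic helix-loop-helix factor, read 0.724, 0.476 and 0.282 CPM against 1.28, 1.77 and 1.47 CPM (-1.44 ± 0.56). Tfap2b, a factor of the distal tubule, read 1.45, 2.62 and 0.282 CPM against 2.88, 2.84 and 3.67 CPM (-1.03 ± 0.43). Neither overlapped between groups, at levels of a few counts in a library. The same held in this direction for 2.74% of all genes, and both were named for small p within their list. Ret, the receptor of the ureteric tip, read 0.621, 1.43 and 0.564 CPM against 0.320, 2.25 and 1.47 CPM, with the sign turning between litters (-0.85 ± 0.44).

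Genes of growth and stress had small medians. Cell cycle genes had a median of -0.05 with 6 of 29 positive. Mcm5, a subunit of the replicative helicase, read 75.1, 71.9 and 57.2 CPM with Mylk-shRNA and 81.4, 80.1 and 70.9 CPM with Rock1/2-shRNA (-0.20 ± 0.09), and the ribonucleotide reductase subunit gene Rrm2 had -0.20 ± 0.10. Of the apoptosis and p53 genes 2 of 14 were positive at a median of -0.11, where Ccng1 and Phlda3, both p53 targets, had -0.20 ± 0.11 and -0.18 ± 0.10. Ribosomal protein genes were positive for 2 of 81, with a median of -0.13, and 38 were lower in each litter. The litter medians were 0.02, -0.30 and -0.13, and without the Mylk-shRNA library of litter 2 the median was 0.01, so that library decided the sign.

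Interferon response genes, which report sensing of virus or double-stranded RNA, had a median of 0.05 with 15 of 18 positive. Their medians within litters 1, 2 and 3 were higher, at 0.19, 0.12 and 0.11. H2-K1, a class I antigen-presenting molecule, read 115, 107 and 109 CPM against 97.5, 96.96 and 94.1 CPM without overlap (0.18 ± 0.08), and Oasl2, an interferon-induced gene, read 8.90, 9.77 and 11.8 CPM against 5.13, 7.34 and 8.08 CPM (0.46 ± 0.22). Hypoxia and glycolysis genes went both ways around a median of 0.03. The glucose transporter gene Slc2a1 read 163, 173 and 96.4 CPM against 152, 131 and 81.3 CPM (0.23 ± 0.09), whereas Ndrg1 and Car9 had -0.23 ± 0.11 and -0.69 ± 0.37. The microRNA processing genes, the machinery that miR-30 hairpins pass through, had a median of 0.04, and Ago2, the slicing Argonaute, a log2 fold change of 0.24 ± 0.15. Medians were 0.02 for YAP and TEAD targets, 0.03 for Wnt targets, -0.01 for TGF-beta and BMP response genes, 0.04 for immediate early genes, -0.01 for the 5 neural crest genes tested and 0.01 for housekeeping genes. Mitochondrially encoded genes had -0.12, with litter medians of 0.13, -0.63 and 0.18. Genes of X inactivation and escape had 0.02, with litter medians of 0.01, -0.07 and 0.22.

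**Figure D5:**
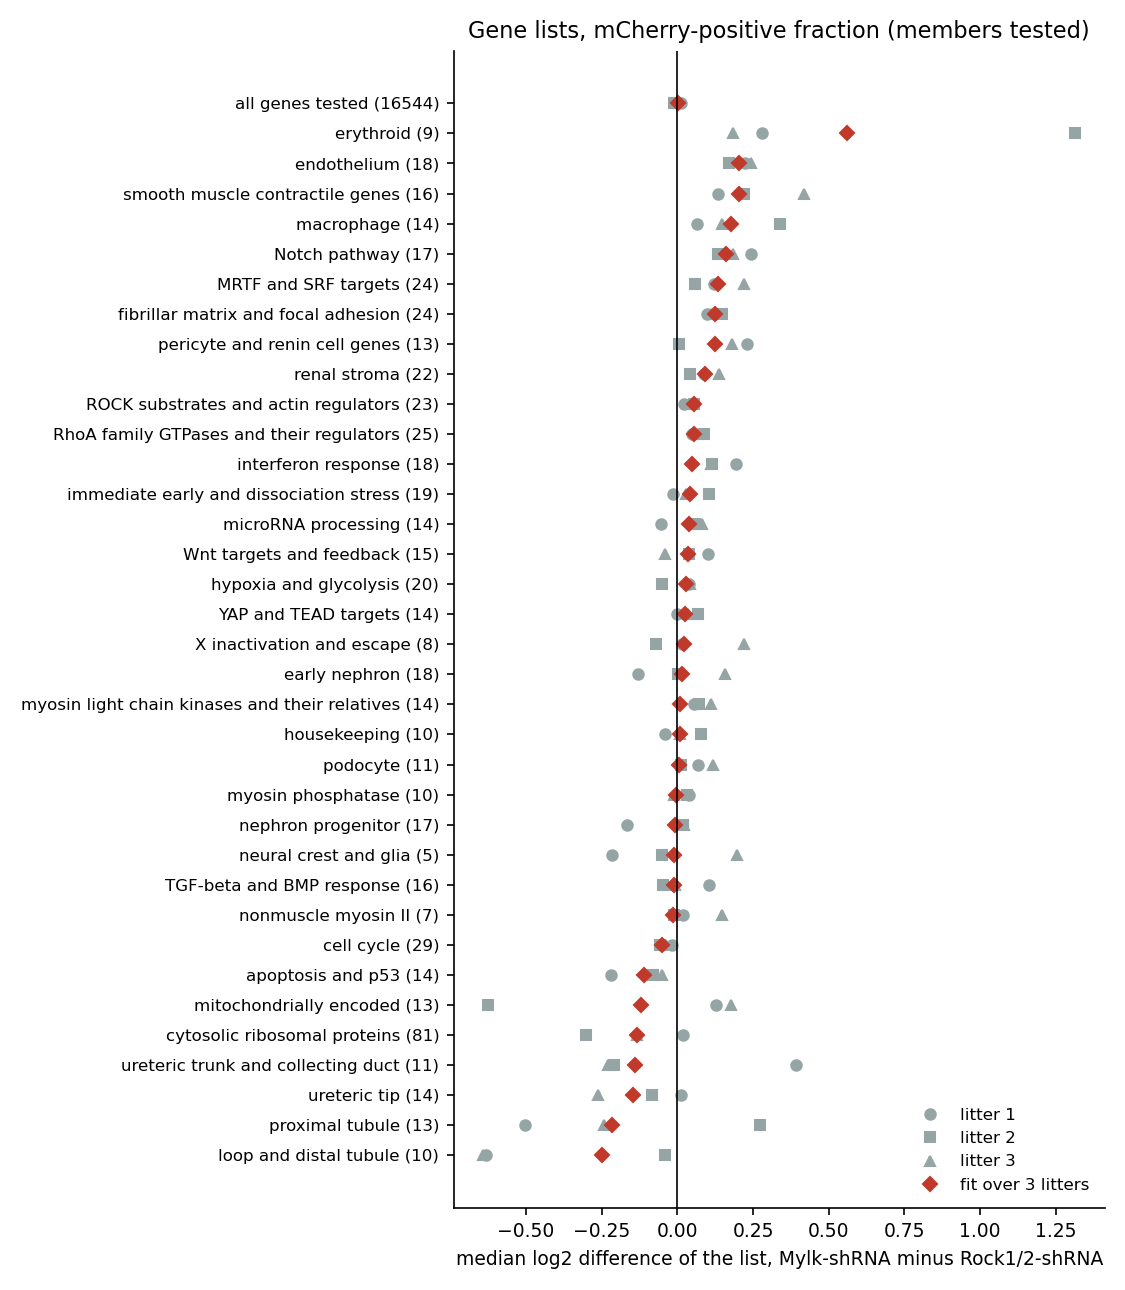
Median log2 difference of Mylk-shRNA minus Rock1/2-shRNA (horizontal axis) for each gene list, with the number of members tested in brackets, the median of the fitted values as diamonds and the medians within litters as grey symbols. Endothelial, smooth muscle, Notch, MRTF and SRF and matrix genes lie above 0 in each litter by 0.42 or less, while the erythroid, proximal tubule and mitochondrial lists spread widely between litters.

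The negative fraction gives the same comparison in cells of the same cultures with the least mCherry. There, too, 0 genes passed (0% of 16544; edgeR's quasi-likelihood test), with 534 at an unadjusted p below 0.05 (3.23%). The test of the difference between fractions called 0 genes (0%), with 351 (2.12%) at an unadjusted p below 0.05. Within litters 1, 2 and 3 the log2 differences in the positive fraction correlated with those in the negative fraction at r = 0.13, -0.25 and 0.19 over 11996 genes, a description in which genes share each culture's libraries. Of the 12 genes chosen as higher, 10 had the same sign in the negative fraction, as did 8 of the 12 chosen as lower. Both fractions came from the same cultures, so these counts are no independent repeat. Of all genes, 8186 of 16544 had a positive log2 fold change in the negative fraction. Tbx18 and Postn had log2 fold changes of 0.45 ± 0.18 and 0.28 ± 0.13 there, near those of the positive fraction. Myh11 and Cnn1 had 1.44 ± 0.67 and 1.04 ± 0.75 in the negative fraction. That fraction includes the same Rock1/2-shRNA culture of litter 3, nearly free of Xist there too, so it shares the imbalance in sex-linked levels. The genes with the smallest p for a difference between fractions included Sh3pxd2b, a scaffold of podosomes, at 0.25 ± 0.09 in positive and -0.15 ± 0.09 in negative cells, and Ttf1, at -0.42 ± 0.14 and 0.23 ± 0.12. None of these differences between fractions passed after adjustment.

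The scramble-shRNA libraries place both hairpin groups against a control virus, and since that control is shared the values are given side by side only. Median log2 differences from scramble-shRNA were 0.09 with Mylk-shRNA and -0.12 with Rock1/2-shRNA for smooth muscle genes, and -0.02 and -0.25 for endothelial genes. They were 0.07 and -0.05 for MRTF and SRF targets, 0.12 and 0.01 for matrix and focal adhesion genes, and 0.14 and -0.06 for Notch genes. Over all genes they were 0.01 and 0.00.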

How the data were processed

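RNA was measured by bulk poly(A) RNA-seq of sorted cells. The authors deposited, for each library, an estimated count per gene, which need not be whole, and a CPM value, which equals the count scaled to the library's sum. Per the submitters' processing notes, GRCm39 was the build, and the tools named are FastQC 0.12.1, MultiQC 1.32, STAR 2.7.11, fastp 0.24.0, SAMtools 1.22.1 and featureCounts (Subread 2.1.1). Annotation, strandedness and multiply mapped reads: not given in the sources used here, so overlapping genes cannot be separated.

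Counts were rounded, 92 spike-ins were left out, and 16544 genes passed edgeR's filterByExpr (minimum count 10, minimum total 15). Libraries were scaled by TMM, and edgeR 4.0.16 (R 4.3.3) fitted the quasi-likelihood model with robust dispersions to all 18 libraries, with 6 group means and litter as a block (common biological coefficient of variation 0.0987, with 10 residual degrees of freedom). Each contrast was adjusted by Benjamini-Hochberg over all genes, with a threshold of 0.05. The difference between fractions was fitted with the culture as a block. The fit was tested on simulated data. Levels are deposited CPM, ± in a level is the SD and ± in a log2 fold change is the standard error. CPM carries no length correction and is not compared between genes.

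Litter numbers come from the labels, and they pair the samples. Among the 6 libraries, deviations from group means correlated at 0.36 to 0.53 for the 3 same-litter pairs and at -0.33 to 0.04 for the 6 others. Because group means were removed, positive same-litter pairs push the others below 0, so the gap between these ranges is partly built in. Of the 6 pairs of libraries within the groups compared, none agreed within sampling noise.

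Named genes were the targets, the 12 of smallest unadjusted p in each direction (symbol, mean of at least 5 CPM, equal sign in the 3 litters, no predicted genes or pseudogenes), up to 4 members of each list by p, and 4 in each direction for the difference between fractions. The libraries compared and the 37 lists were chosen with earlier results of these data known. Alternatives were DESeq2 1.42.0, limma 3.58.1 voom, other scaling, filters, sample sets, no litter block, a Y-linked covariate, and leaving out each library or litter 3.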

Additional observations from a re-analysis of the deposited data

How the results depend on the processing

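The pairing by litter is part of the reported fit; with no replicate block, 0 genes were again called in the positive fraction, the negative fraction and their difference, with 199, 121 and 119 at an unadjusted p below 0.05 against 477, 534 and 351. The replicate block changed no call. The positive-fraction count stayed 0 with DESeq2's Wald test (258 at unadjusted p below 0.05), DESeq2 size factors (482), limma voom (559), no filter (970 of 51841), the 9 positive libraries (985 of 14048), a Y-linked covariate (467), without litter 3 (371) and without any 1 library (348 to 735). It was 1 when the 6 libraries were fitted alone (1189 of 13689 at unadjusted p below 0.05). The difference between fractions gave 0 to 3 genes when a litter was left out: 1 without litter 1, 3 without litter 2 and 0 without litter 3.

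Among single genes, Rock1 turned to -0.0368 without litter 3 and ranged from -0.0201 to 0.152 without single libraries, Mylk from -0.227 to 0.0454 and the list member Fhl1 from -0.0467 to 0.244; the cause was not tested. Of the values of named genes, 879 of 880 kept direction and side of the threshold under other settings, and 601 of 606 when a library was left out. No gene had passed in the main fit, and most named genes were chosen for small p in these same data. These counts were therefore largely set by the choice and are no measure of robustness.

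List medians moved beyond the spread of their litters in 8 of 324 cases under other settings: light chain kinases -0.0209 (voom), myosin phosphatase -0.0344 and YAP targets 0.0697 (Y-linked covariate), ROCK substrates 0.0720 (no filter), endothelium 0.258 (DESeq2's Wald test), cell cycle -0.0304 (no replicate block), and podocyte -0.0492 and interferon response 0.131 (without litter 3). They did so in 50 of 216 cases when 1 library was left out. Without single libraries the medians ranged from -0.00522 to 0.0725 for light chain kinases, -0.0398 to 0.0327 for myosin phosphatase, 0.0208 to 0.0948 for RhoA family GTPases and regulators, 0.02545 to 0.08665 for ROCK substrates, 0.0980 to 0.369 for smooth muscle, 0.0662 to 0.259 for pericytes, 0.0558 to 0.164 for stroma, 0.0568 to 0.197 for matrix, 0.0520 to 0.169 for MRTF and SRF targets, -0.0213 to 0.0647 for YAP targets, -0.117 to 0.0320 for nephron progenitors, -0.147 to 0.103 for early nephron, -0.0570 to 0.0633 for podocytes, 0.0669 to 0.409 for endothelium, 0.00365 to 0.326 for macrophages, 0.0694 to 0.344 for Notch, -0.1145 to -0.02965 for cell cycle, 0.0580 to 0.135 for interferon and -0.0568 to 0.140 for immediate early genes. The Y-linked list, at a median of 0.47 (4 genes), ranged from 0.09 to 1.24.

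With 3 litters a group and a library of 3121616 counts, small differences in genes of few counts were not detectable.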

Other observations

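Mir6236 was the single gene that passed an adjusted threshold in any fit of the positive fraction, and only when the 6 libraries of the comparison were fitted alone (log2 fold change -0.92, adjusted p 8.44e-08 by edgeR's quasi-likelihood test). With all 18 libraries its log2 fold change was -0.93 ± 0.89 with an adjusted p of 1.00. It read 42.8, 82.4 and 129 CPM with Mylk-shRNA and 75.6, 160.3 and 240 CPM with Rock1/2-shRNA in litters 1, 2 and 3. It was lower with Mylk-shRNA in each litter while the groups overlapped, and the litters differed within each group by more than the groups did. It was chosen after its values were seen.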
